A study of Mus musculus with 9 samples.

Results

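Whole lung of C57BL/6 mice kept at 10% oxygen for 3 weeks was compared between 3 samples from mice that also received parathyroid hormone (PTH, replicates 3, 4 and 5) and 3 samples from mice kept in hypoxia alone (replicates 1, 2 and 5). These 6 samples were chosen by their titles from the 9 of the series, and the remaining 3 samples were lungs of normoxic mice. The hormone was the fragment PTH 1–34, given by injection at 40 µg per kg of body weight each day. The labels mention a sham group given saline without saying which samples belong to it, so an effect of PTH and an effect of the injections cannot be told apart. They give the wild type only as WT in the titles of the groups without PTH and give no age. Whether the samples of a group are separate animals is also not stated, and p-values therefore cover only the spread among these samples.

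PTH is a peptide made by the parathyroid glands that raises blood calcium by acting on bone and kidney. Its receptor, PTH1R, couples through the stimulatory G protein to adenylyl cyclase and cyclic AMP (cAMP), and through another G protein class to phospholipase C. The cAMP-dependent protein kinase A then phosphorylates the transcription factor CREB, which binds cAMP response elements (CREs) in promoters. Chronic hypoxia in mice is a common model of pulmonary hypertension, in which small pulmonary arteries gain muscle and pressure in them rises.

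The 9 libraries held 40234030 to 58391086 counts each, and levels are given as CPM, counts scaled to a common library size. Markers of lung cells were present in all 6 libraries compared. Sftpc, the surfactant protein C gene of type 2 alveolar cells, stood at 10460 to 14640 CPM, and Ager, a type 1 alveolar gene, at 1828 to 2314 CPM. Libraries of one group differed in 2 ways that overlap with the comparison. The clock score, the mean centred log2 CPM of clock output genes minus that of clock activator genes, was 2.14 and 1.81 in hypoxia replicates 1 and 2 but -1.39 in hypoxia replicate 5, and lay between -1.67 and -0.907 in the 3 PTH libraries. The score of cardiac muscle and fat genes was -0.937, 2.10 and 2.15 in hypoxia replicates 1, 2 and 5, against -0.502, -0.0289 and -3.16 in PTH replicates 3, 4 and 5. Hypoxia replicate 5 shared the clock phase of the PTH libraries, and PTH replicate 5 held the least muscle and fat RNA. Fits with hypoxia replicate 5 as the only hypoxia library, and with the scores as covariates, are therefore given beside many of the lists and genes whose values they move.

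No gene passed the test in this comparison. Of 19640 genes tested, edgeR called 0 (0% of the genes tested) at an adjusted p under 0.05, and the smallest adjusted p was 0.125. An unadjusted p under 0.05 was found for 1828 genes (9.31%), with 832 higher with PTH (4.24%) and 996 lower (5.07%). The 3 PTH libraries all stood above the 3 hypoxia libraries for 1297 genes (6.6%) and all below them for 1431 genes (7.29%). Without PTH replicate 5 the count at an unadjusted p under 0.05 was 1014. DESeq2 called 156 genes (0.919% of the 16966 to which it gave an adjusted p), 95 higher and 61 lower, while limma-voom called 0. The median log2 fold change of all genes was -0.01, and the median standard error (SE) of a fold change was 0.17. The values that follow are thus differences between 3 and 3 libraries, and none of the genes described is called changed by edgeR.

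**Figure D1:**
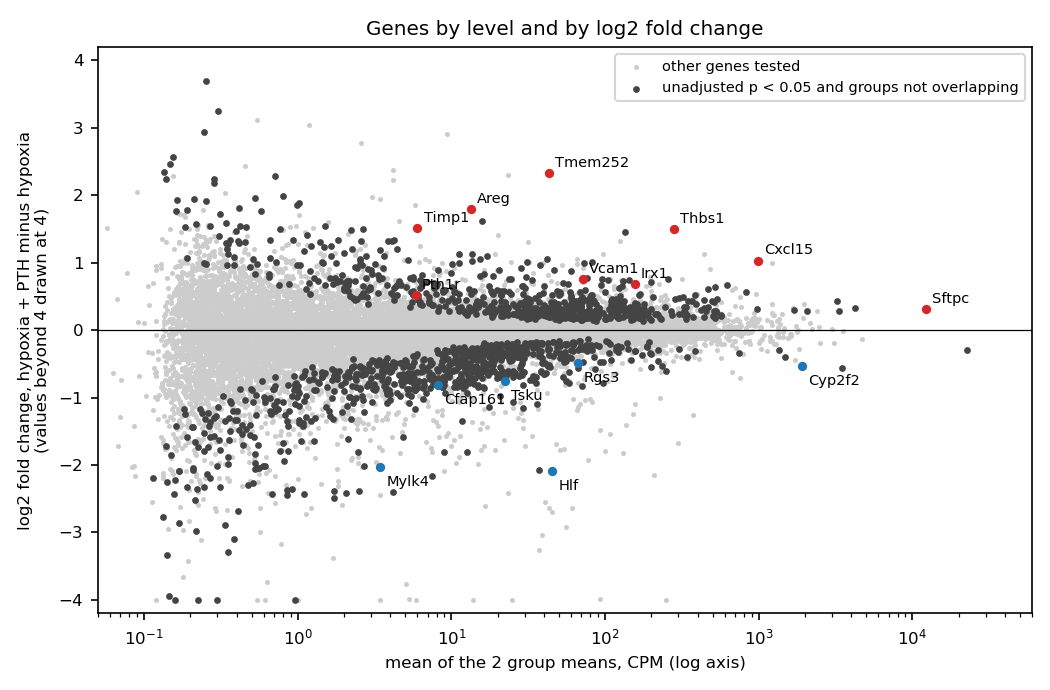
Each point is a gene, with the mean of the group means in CPM on a log axis and the log2 fold change of hypoxia with PTH minus hypoxia on the vertical axis (1 model of all 9 libraries). Dark points are genes at an unadjusted p under 0.05 whose 3 and 3 libraries do not overlap, coloured points are genes named in the text, and the widest differences lie at low and middle levels, while Sftpc at the right has 0.31.

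Pth1r, the receptor gene itself, stood at 4.13, 4.85 and 5.42 CPM in hypoxia replicates 1, 2 and 5 and at 6.996, 6.42 and 7.22 CPM in PTH replicates 3, 4 and 5. The groups did not overlap, and the log2 fold change was 0.52 (SE 0.17, edgeR adjusted p = 0.451). With hypoxia replicate 5 as the only hypoxia library the value was 0.34. Pth1r lies on the strand opposite Myl3, a cardiac myosin light chain gene whose level per length reached 83.1% of that of Pth1r and whose log2 fold change was -1.22, and the use of the strand in counting is not known from the sources used here. The other 15 tested genes of the signalling chain lay between -0.27 and 0.39. They included Gnas, which encodes the stimulatory G protein subunit, at 748, 670 and 735 CPM in hypoxia and 747, 694 and 768 CPM with PTH (0.04, SE 0.085). Pthlh, the gene of the related hormone PTHrP, had -0.27, and the genes of PTH itself, Pth2 and Pth2r were too low to test.

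Genes known to follow cAMP, protein kinase A and CREB were mostly higher with PTH. Of 24 listed and tested genes, 21 had values above 0, where 47.7% of all genes did, and their median was 0.47 on the log2 scale. The 3 PTH libraries all stood above the hypoxia libraries for 3 of them, Akap12, Areg and Crem, where 6.6% of all genes did. They all stood below for Ppargc1a, a coactivator of mitochondrial genes, where 7.29% of all genes did. At an unadjusted p under 0.05, 6 were higher and 1 was lower, against 4.24% and 5.07% of all genes, so that the lower share was near the background. The median was 0.43 with hypoxia replicate 5 as the only hypoxia library, 0.31 with the clock score as a covariate and 0.50 with the muscle and fat score, where 17 of the 24 were above 0.

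Areg encodes amphiregulin, a ligand of the epidermal growth factor receptor. It stood at 2.82, 9.11 and 5.93 CPM in hypoxia replicates 1, 2 and 5, and at 11.01, 24.2 and 27.1 CPM in PTH replicates 3, 4 and 5. The highest hypoxia library lay just under the lowest PTH library, and the log2 fold change was 1.80 (SE 0.44, edgeR adjusted p = 0.426). Its mean in normoxia was 11.8 CPM. The window around the annotated Areg start, from 250 bases before it to 50 after it (GRCm38.p6, chr5:91139349-91139648, plus strand, from RefSeq) are shown because they hold the full CRE, TGACGTCA, in capitals, with its first base at position -61 from the start.
Areg: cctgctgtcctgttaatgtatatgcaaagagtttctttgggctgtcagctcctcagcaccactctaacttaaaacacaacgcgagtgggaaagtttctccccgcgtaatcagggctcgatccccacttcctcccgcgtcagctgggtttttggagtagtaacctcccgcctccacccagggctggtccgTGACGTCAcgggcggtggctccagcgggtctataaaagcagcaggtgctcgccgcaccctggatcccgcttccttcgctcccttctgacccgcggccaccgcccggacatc
This motif is its own reverse complement and stood in 2.03% of the 27025 genes with such a window. Among the 20 cAMP-responsive genes with a window, Areg and Dusp1 held it, and a match in the letters is only a description of the window.

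Akap12 encodes a scaffold protein that binds protein kinase A. It stood at 143, 133 and 131 CPM in hypoxia replicates 1, 2 and 5 and at 205, 187 and 191 CPM with PTH (log2 fold change 0.52, SE 0.07, edgeR adjusted p = 0.125). The gap between the groups was wider than the range within either. Lack of overlap and an unadjusted p under 0.05 were conditions of choice for Akap12, Areg and Crem, and so are not results. Crem, whose short product ICER is a repressor made in response to cAMP, stood at 12.9, 15.5 and 12.5 CPM in hypoxia and 18.1, 19.2 and 27.1 CPM with PTH (0.65, SE 0.15, edgeR adjusted p = 0.426). Normoxia libraries had a mean of 21.5 CPM for Crem and 168 CPM for Akap12. For Crem the mean with PTH was also 21.5 CPM. For Akap12 the mean with PTH, 194.5 CPM, lay above that of normoxia, and the hypoxia mean, 135.8 CPM, lay below it. Sik1, a kinase gene induced by cAMP, overlapped between groups, at 156, 259 and 294 CPM in hypoxia and 271, 428 and 499 CPM with PTH (0.76, SE 0.26). Fos and Nr4a1, immediate early genes, ran from 35.2 to 263 and from 24.1 to 215 CPM within the hypoxia group alone, with the lowest value of each in replicate 1. The list of 18 immediate early genes, which shares members with the cAMP list, had 16 above 0 and a median of 0.43, or 0.30 with hypoxia replicate 5 as the only hypoxia library. Without PTH replicate 5 the medians of the cAMP and immediate early lists were 0.22 and 0.16, and without hypoxia replicate 1 they were 0.25 and 0.18.

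The 15 genes higher with PTH that ranked first by p had roles in transcription, signalling and adhesion, among others. They were ranked among genes with a mean of at least 5 CPM in the higher group and no overlap between groups. Lack of overlap was thus a condition of choice and not a result. Irx1, an Iroquois homeobox transcription factor gene, stood at 109.7, 131 and 119 CPM in hypoxia and 203, 173 and 199 CPM with PTH (0.68, SE 0.09, edgeR adjusted p = 0.125). Its paralog Irx2 showed the same order, with 48.5, 61.7 and 54.9 CPM in hypoxia and 92.9, 68.7 and 83.2 CPM with PTH (0.57, SE 0.12, edgeR adjusted p = 0.366). Irx2 was not among the 15 and came from the list of 18 lung patterning factors, which also holds Nkx2-1 and Sox2. That list had 10 genes above 0 and a median of 0.01, with values from -0.695 to 0.678. Lack of overlap was a condition of choice for both Irx1 and Irx2. Their normoxia means, 163 and 73.4 CPM, lay between the means of the other groups.

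Receptors and adhesion molecules followed. Il1r1, the signalling receptor of interleukin 1, stood at 41.6, 38.3 and 43.7 CPM in hypoxia and 64.8, 58.2 and 60.6 CPM with PTH (0.57, SE 0.087, edgeR adjusted p = 0.23). Vcam1, an adhesion molecule for leukocytes, stood at 54.0, 45.6 and 60.2 CPM in hypoxia and 87.5, 80.5 and 101 CPM with PTH (0.75, SE 0.14, edgeR adjusted p = 0.36). Pvr, an adhesion protein of the nectin family, had 0.59 (SE 0.09), and Tnfsf9, which encodes the 4-1BB ligand, had 1.33 (SE 0.22). Il1r1, Vcam1, Pvr and Tnfsf9 were all chosen among genes without overlap between groups. Kcne2, a potassium channel subunit gene, stood at 16.8, 19.4 and 22.2 CPM in hypoxia and 34.5, 33.1 and 43.2 CPM with PTH (0.92, SE 0.15). Cftr, the chloride channel gene of cystic fibrosis, stood at 7.42, 7.25 and 6.48 CPM in hypoxia and 13.9, 12.5 and 20 CPM with PTH (1.13, SE 0.22). The value of Kcne2 was 0.60 with the clock and the muscle and fat scores as covariates. Dnm3os, a noncoding host transcript of microRNAs, had 1.14 (SE 0.18) and lies opposite Dnm3, whose own log2 fold change was 0.09. Tnfaip1, Dpysl3, Myo5b, Pdlim1 and Timp1 were also among the 15 and ran from 0.35 to 1.52. DESeq2 called all 15, where it called 0.919% of all genes to which it gave an adjusted p, and limma-voom called 0. Since the 15 were chosen by p in the same counts, the DESeq2 calls are not separate evidence.

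Among genes with a mean of at least 5 CPM in the higher group and no overlap, the 5 genes with the largest fold changes at an unadjusted p under 0.05 were highest in PTH replicate 5. Tmem252, a transmembrane protein gene, stood at 14.2, 12.8 and 15.9 CPM in hypoxia and at 39.99, 55.9 and 120.3 CPM in PTH replicates 3, 4 and 5 (2.33, SE 0.49). Thbs1, which encodes thrombospondin 1, stood at 83.5, 189 and 167 CPM in hypoxia and at 218, 334 and 692 CPM with PTH (1.5, SE 0.45), while its normoxia mean was 504 CPM. Tnfrsf10b, a death receptor gene, stood at 5.71, 9.62 and 8.05 CPM in hypoxia and 11.2, 23.8 and 37.1 CPM with PTH (1.62, SE 0.40). The other 2 genes of the 5 were Areg and Timp1, again highest in that library. With both scores as covariates the value of Tmem252 was 1.10 and that of Thbs1 was 1.03.

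**Figure D2:**
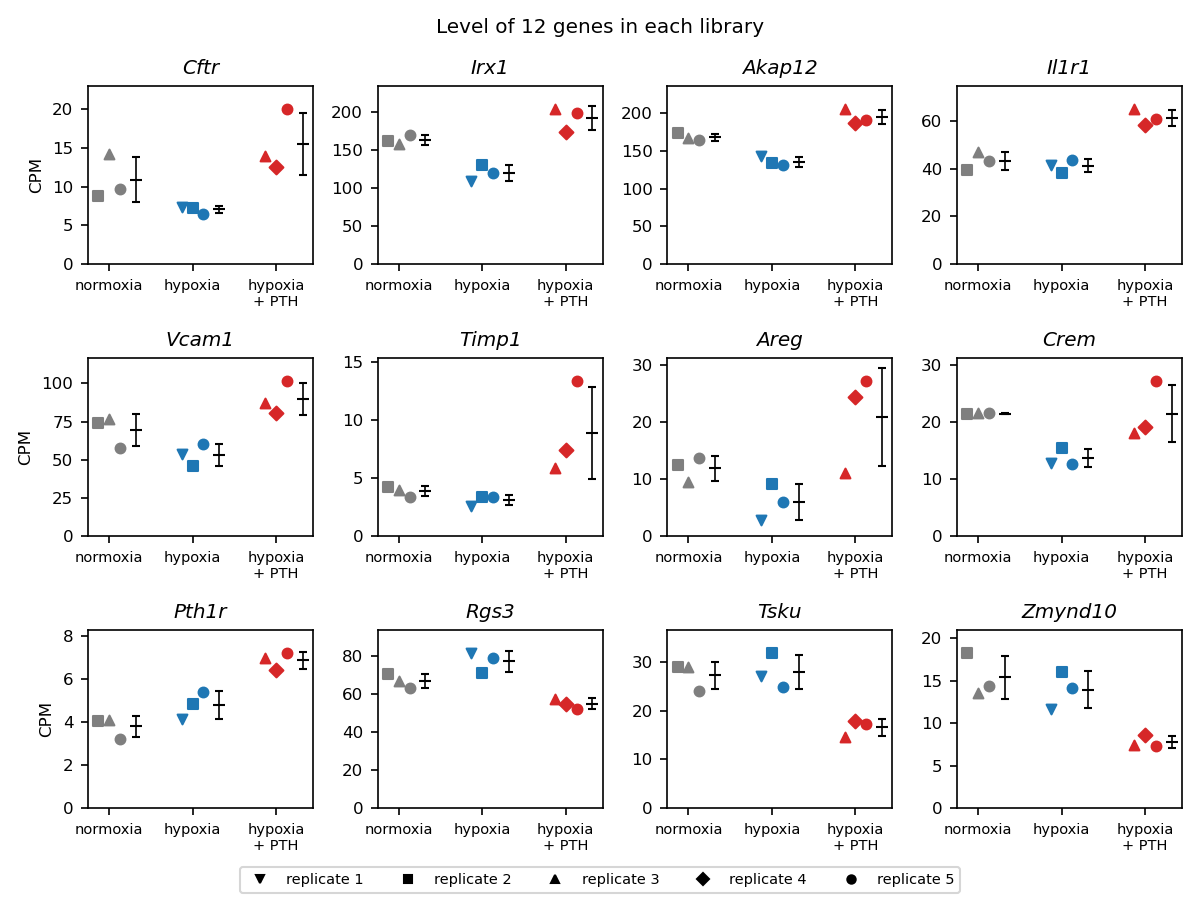
Level of 12 genes in CPM in each of the 9 libraries, by group, with a marker shape for each replicate number and the mean ± SD of 3 libraries at the right of each group. For all 12 the 3 PTH libraries lie on one side of the 3 hypoxia libraries, which was a condition of choice for all but Pth1r. PTH replicate 5 lies highest for Timp1, Areg and Crem.

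The 15 genes lower with PTH that ranked first by p, under the same conditions, included several that act in signalling and some that act in cilia. Rgs3, a regulator that shortens G protein signals, stood at 81.7, 71.1 and 79.4 CPM in hypoxia and 57.8, 55.1 and 52.1 CPM with PTH (log2 fold change -0.49, SE 0.078, edgeR adjusted p = 0.231). Tsku, which encodes the secreted proteoglycan tsukushi, stood at 27.2, 31.8 and 24.8 CPM in hypoxia and 14.6, 17.9 and 17.2 CPM with PTH (-0.75, SE 0.12, edgeR adjusted p = 0.237). In normoxia Rgs3 and Tsku had means of 67.1 and 27.4 CPM. Bcl7a, a subunit gene of SWI/SNF chromatin remodelling complexes, stood at 41.5, 46.7 and 48.0 CPM in hypoxia and 34.3, 30.3 and 32.2 CPM with PTH (-0.49, SE 0.081). Pik3ip1, an inhibitor of phosphoinositide 3-kinase, stood at 79.5, 68.5 and 72.0 CPM in hypoxia and 36.2, 54.1 and 38.0 CPM with PTH (-0.78, SE 0.15). Ass1 encodes argininosuccinate synthase, which makes arginine precursor for nitric oxide synthesis among other uses. It stood at 46.4, 45.4 and 33.4 CPM in hypoxia and 25.0, 29.7 and 23.6 CPM with PTH (-0.68, SE 0.14), with a normoxia mean of 24.4 CPM. Hypoxia replicate 5 was the lowest hypoxia library for Ass1, and with it as the only hypoxia library the value was -0.35. Gfra1, a receptor of glial cell line-derived neurotrophic factor, had -0.79 (SE 0.16), Mycl, a MYC family gene, -0.63 (SE 0.13) and Fgfbp1, which encodes a carrier of fibroblast growth factors, -0.55 (SE 0.11). Zfp503, Nxpe3, Aph1c and Dzank1 were also among the 15, from -0.82 to -0.49. Genes of motile cilia among the 15 included Zmynd10, Cfap161 and Lrrc23. DESeq2 called all 15 and limma-voom 0, and here too the 15 were chosen by p in the same counts.

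Type 2 alveolar cells make and recycle surfactant, the lipid and protein film that keeps alveoli open, and renew the alveolar epithelium. All 15 genes of the type 2 list were above 0, and their median was 0.39 on the log2 scale against -0.01 for all genes. In 13 of the 15 the 3 PTH libraries all stood above the 3 hypoxia libraries, where 6.6% of all genes did, and the same number had an unadjusted p under 0.05, where 4.24% of all genes did. Called by edgeR were 0 of them, and by DESeq2 5. The exceptions were Etv5 and Hc, whose groups overlapped. In whole tissue, a change in the number of cells of a type and a change in RNA per cell cannot be told apart.

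Among the surfactant protein genes, Sftpc stood at 11140, 11250 and 10460 CPM in hypoxia and at 13050, 13150 and 14640 CPM with PTH (0.31, SE 0.11). Sftpd stood at 621, 659.9 and 712 CPM in hypoxia and 829, 982 and 1129 CPM with PTH (0.56, SE 0.12, edgeR adjusted p = 0.366), beside a normoxia mean of 916 CPM. Sftpa1 and Sftpb had 0.43 and 0.28. All of these surfactant genes were thus higher in each PTH library than in any hypoxia library. Abca3 encodes the lipid pump of lamellar bodies, the organelles that store surfactant. It stood at 291, 301 and 355 CPM in hypoxia and 473, 453 and 437 CPM with PTH (0.52, SE 0.11). Lamp3, a lamellar body membrane gene, stood at 390, 371 and 356 CPM in hypoxia and 533, 448 and 536 CPM with PTH (0.44, SE 0.10). Cxcl15, the lung chemokine lungkine, stood at 592, 474 and 883 CPM in hypoxia and 1330, 1067 and 1584 CPM with PTH (1.03, SE 0.22). It had the largest difference of the list, and its value was 0.59 with hypoxia replicate 5 as the only hypoxia library and 0.51 with both scores as covariates. Nkx2-1, the transcription factor of lung epithelium that drives surfactant genes, stood at 215, 229 and 211 CPM in hypoxia and 279.6, 255 and 293 CPM with PTH (0.34, SE 0.076). Slc34a2, a phosphate transporter of type 2 cells, had 0.31, and Fasn, the fatty acid synthase gene, 0.39, or 0.12 with the clock score as a covariate. Abca3 had 0.33 in that fit.

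The median of the type 2 list lay between 0.34 and 0.43 over all 22 settings. It was 0.38 with hypoxia replicate 5 as the only hypoxia library, where 14 of 15 were above 0, and 0.34 with the muscle and fat score in the model, where all 15 were. With the clock score it was 0.35. The number at an unadjusted p under 0.05, 13 in the fit of all libraries, was 8 with hypoxia replicate 5 as the only hypoxia library, 8 without PTH replicate 5 and 5 with the muscle and fat score. Type 1 alveolar genes, of the flat cells across which gas is exchanged, had a median of 0.16 with 12 of 15 above 0. In 3 of the 15 the PTH libraries all stood above the hypoxia libraries, where 6.6% of all genes did. With the muscle and fat score in the model the type 1 median was 0.05, with 9 of 15 above 0. Ager stood at 1922, 1834 and 1828 CPM in hypoxia and 2304, 2186 and 2314 CPM with PTH (0.28, SE 0.08). Igfbp2, an insulin-like growth factor binding protein gene of mature type 1 cells, had 0.43 (SE 0.19), and 0.25 with that score.

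Genes of ciliated airway cells, whose motile cilia sweep mucus out of the bronchi, were lower with PTH. Of 16 tested genes 15 had values below 0, where 52.3% of all genes did, and the median log2 fold change was -0.63. The 3 PTH libraries all stood below the 3 hypoxia libraries for 11 of the 16, where 7.29% of all genes did, and 14 had an unadjusted p under 0.05, where 5.07% of all genes were lower at that level. Foxj1, which encodes the master transcription factor of motile cilia, had -0.48, and the outer dynein arm heavy chain gene Dnah5 had -0.82. Cfap161, a cilium protein gene, stood at 10.5, 9.42 and 11.2 CPM in hypoxia and 5.58, 6.61 and 5.44 CPM with PTH (-0.82, SE 0.15, edgeR adjusted p = 0.36). Zmynd10, needed to assemble dynein arms and not on the list, stood at 11.7, 16.02 and 14.1 CPM in hypoxia and 7.45, 8.57 and 7.26 CPM with PTH (-0.85, SE 0.16). Cfap161 and Zmynd10 were chosen among genes without overlap between groups. Rsph1, a radial spoke gene, stood at 25.2, 33.5 and 33.0 CPM in hypoxia and 19.4, 23.05 and 16.3 CPM with PTH (-0.64, SE 0.19), and Tekt1, a tektin gene of the axoneme, at 11.3, 16.2 and 17.8 CPM and 9.88, 11.2 and 8.95 CPM (-0.59, SE 0.20). Here hypoxia replicate 1 was the lowest hypoxia library and stood close to the PTH libraries. A gene ontology set for cilium movement, picked with its values known, had 36 of 37 tested genes below 0 and a median of -0.62.

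Genes of club and goblet cells, the secretory cells of the airways, had values below 0 for all 14 tested, with a median of -0.59. In 6 of them the PTH libraries all stood below the hypoxia libraries, where 7.29% of all genes did. Cyp2f2, a cytochrome P450 gene of club cells, stood at 2020, 2475 and 2246 CPM in hypoxia and 1824, 1531 and 1299 CPM with PTH (-0.53, SE 0.14). Scgb1a1, the main secretory protein gene of club cells, stood at 21220, 28290 and 24810 CPM in hypoxia and 19970, 20700 and 20010 CPM with PTH (-0.29, SE 0.11). The 3 PTH libraries were alike in Scgb1a1 and only slightly below hypoxia replicate 1. Secretory genes of the upper and submucosal airway spread far more within groups. Bpifa1, one of these, ran from 2.20 CPM in hypoxia replicate 1 to 1053 CPM in hypoxia replicate 2, and from 0.213 to 68.5 CPM with PTH (-4.24, SE 2.74).

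The values of the airway lists changed with the muscle and fat score in the model. That score overlaps in part with the comparison, and the part of muscle and fat content in these differences was not tested. With the muscle and fat score in the model the median of the ciliated list was -0.22, with 15 of 16 genes still below 0 and 2 at an unadjusted p under 0.05. The median of the club list was then 0.06, with 7 genes on each side of 0. With hypoxia replicate 5 as the only hypoxia library the medians were -0.79 and -0.63, and with the clock score they were -0.67 and -0.59. Without PTH replicate 5 they were -0.51 and -0.47, and the ciliated genes at an unadjusted p under 0.05 were 3. Without hypoxia replicate 2 or 5, 5 ciliated genes stood at that level. Sox2, a transcription factor of the conducting airways, stood at 12.99, 17.8 and 18.3 CPM in hypoxia and 11.9, 10.6 and 7.88 CPM with PTH (-0.69, SE 0.20). Hypoxia replicate 1 was the lowest hypoxia library for Sox2, and PTH replicate 5 the lowest of all 6. The value of Sox2 was -0.33 with the muscle and fat score in the model and -0.81 with the clock score.

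**Figure D3:**
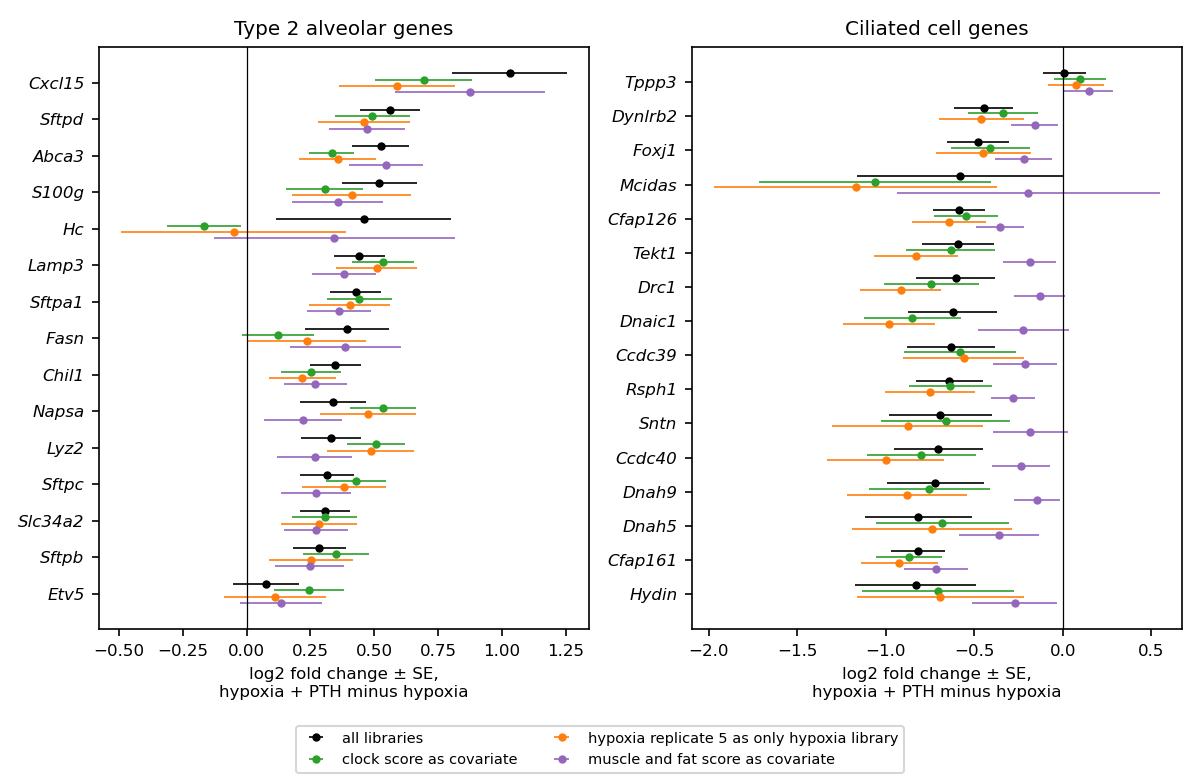
Log2 fold change ± SE of hypoxia with PTH minus hypoxia for each type 2 alveolar gene (left) and each ciliated cell gene (right) in the fit of all libraries, with either score as a covariate, and with hypoxia replicate 5 as the only hypoxia library. Type 2 genes other than Hc stay above 0 in the 4 fits, whereas ciliated genes lie nearer to 0 with the muscle and fat score in the model.

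Genes of mitosis were higher with PTH. Of 28 genes of the cell cycle, 23 had values above 0 (median 0.46), the 3 PTH libraries all stood above the hypoxia libraries for 15 (6.6% of all genes), and 10 were higher at an unadjusted p under 0.05 (4.24% of all genes). Ccnb2, a mitotic cyclin gene, stood at 2.00, 1.77 and 2.15 CPM in hypoxia and 3.95, 3.51 and 3.67 CPM with PTH (0.91, SE 0.24). Cdk1, the kinase that drives mitosis, stood at 2.20, 1.20 and 1.95 CPM in hypoxia and 3.12, 3.42 and 3.90 CPM with PTH (0.96, SE 0.30), and Kif11, a spindle motor gene, at 2.57, 0.962 and 2.76 CPM and 4.94, 5.24 and 4.14 CPM (1.19, SE 0.36). Hypoxia replicate 2 was the lowest of the 6 libraries compared for all of these. Mki67, the Ki-67 proliferation marker gene, stood at 12.2, 4.85 and 8.95 CPM in hypoxia and 15.7, 14.1 and 14.3 CPM with PTH (0.77, SE 0.37). By contrast the genes of the MCM helicase, which acts in DNA replication, lay between -0.12 and 0.33. The 5 genes below 0 were Ccne1, Mcm3, Mcm4, Mcm6 and Mcm7. Without hypoxia replicate 2 the median was 0.35 and 4 genes had an unadjusted p under 0.05, and with hypoxia replicate 5 as the only hypoxia library the median was 0.48 and 3 did. With the clock score as a covariate the median was 0.36 and 1 gene had an unadjusted p under 0.05, and with the muscle and fat score they were 0.40 and 2. With both scores Cdk1 had 0.28 and Ccnb2 0.46. Normoxia means were 1.76 CPM for Ccnb2 and 1.52 CPM for Cdk1.

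**Figure D4:**
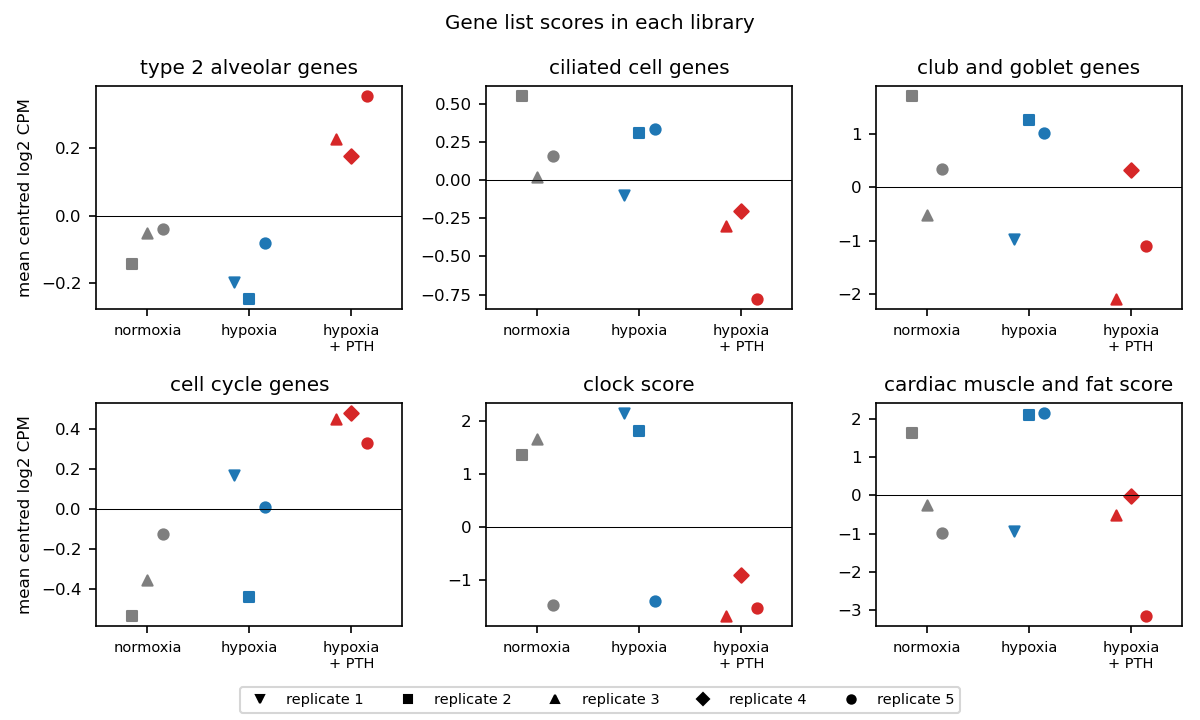
Score of 4 gene lists, and the clock and the cardiac muscle and fat scores, in each of the 9 libraries, as mean centred log2 CPM with a marker shape for each replicate number. The type 2 and cell cycle scores of all 3 PTH libraries lie above those of the hypoxia libraries, the ciliated scores lie below, and club scores overlap, with hypoxia replicate 1 low in both airway scores and in the muscle and fat score.

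Collagen genes, and some genes of matrix turnover, were higher with PTH. All 19 collagen genes had values above 0 (median 0.21), and the PTH libraries all stood above the hypoxia libraries for 6, where 6.6% of all genes did. With the muscle and fat score in the model the collagen median was 0.13 and the genes at an unadjusted p under 0.05 went from 5 to 1. With hypoxia replicate 5 as the only hypoxia library 15 of 19 were above 0, and with both scores 14 were. Col5a1 and Col5a2, chains of the fibril-initiating collagen V, had 0.52 (SE 0.13) and 0.63 (SE 0.17). Col5a2 stood at 104, 78.4 and 107 CPM in hypoxia and 129, 135 and 183 CPM with PTH, and Col3a1 at 417, 218 and 477 CPM and 501, 535 and 652 CPM (0.60, SE 0.24). Hypoxia replicate 2 was the lowest of the 6 libraries compared for Col3a1 and Col5a2, which had 0.20 and 0.16 with both scores as covariates. Timp1, a metalloproteinase inhibitor gene, stood at 2.62, 3.34 and 3.34 CPM in hypoxia and 5.91, 7.44 and 13.4 CPM with PTH (1.52, SE 0.28, edgeR adjusted p = 0.36). Mmp14, a membrane-bound metalloproteinase gene, stood at 64.0, 54.2 and 95.0 CPM in hypoxia and 116, 125 and 121 CPM with PTH (0.77, SE 0.18), and Adamts1, a secreted protease gene, at 137, 172 and 146 CPM and 213, 212 and 319.7 CPM (0.71, SE 0.17). The whole list of 16 metalloproteinases and inhibitors had 10 genes above 0 and a median of 0.50. That median was 0.03 with hypoxia replicate 5 as the only hypoxia library, 0.22 with the clock score and 0.12 with both scores. The list ran from -2.61 for Mmp8, a neutrophil enzyme, to 1.97 for Adamts4. Tnc, the matricellular protein tenascin C, had 0.89 (SE 0.24), and the crosslinking enzyme genes Loxl1 and Loxl2 had 0.74 and 0.43. Elastic fibre and matricellular genes as a list lay near 0, with 16 of 27 above it and a median of 0.07. Mmp14 had 0.35 with hypoxia replicate 5 as the only hypoxia library, Loxl1 0.14 with both scores, and Timp1 1.10 at its lowest over the 22 alternatives.

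Smooth muscle contractile genes, whose cells gain ground in small arteries during pulmonary hypertension, had values below 0 for 13 of 14, with a median of -0.42. The 3 PTH libraries stood below the hypoxia libraries for 5, where 7.29% of all genes did, including Myh11, the smooth muscle myosin heavy chain gene (-0.62). At an unadjusted p under 0.05 only 1 of the 14 was lower, Hhip (-0.48, SE 0.20), a share near the 5.07% of all genes. Acta2, the smooth muscle actin gene, had -0.21, and its groups overlapped. Over the 22 settings the median of this list ran from -0.60 to 0.02, and it was -0.02 with the muscle and fat score in the model. The sign turned with both scores as covariates, where 11 of 14 genes were above 0. Pericyte genes had a median of -0.04 and fibroblast genes of 0.04. Within the latter Fgf10, a growth factor for alveolar epithelium, stood at 22.9, 26.3 and 26.0 CPM in hypoxia and 31.3, 34.8 and 33.3 CPM with PTH (0.40, SE 0.096), and Inmt, a methyltransferase gene of lung fibroblasts, at 2583, 2369 and 1740 CPM and 1615, 1589 and 1495 CPM (-0.51, SE 0.21). The value of Inmt was -0.06 with the clock score and -0.15 with hypoxia replicate 5 as the only hypoxia library.

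Leukocyte genes differed by cell type. Neutrophil genes had values below 0 for all 14, with a median of -1.64, yet no member had groups that did not overlap. Without hypoxia replicate 2 the median was -0.55 with 3 genes above 0, without PTH replicate 3 it was -2.71, and with the muscle and fat score it was -0.66. S100a8, an abundant neutrophil calcium-binding protein gene, shows the spread, at 33.5, 325 and 105 CPM in hypoxia replicates 1, 2 and 5 and 96.0, 19.4 and 18.2 CPM with PTH (-1.79, SE 1.16). Genes of natural killer and cytotoxic cells had a median of -0.53 with 15 of 16 below 0, and 1 of them did not overlap, a share near the 7.29% of all genes. That median ran from -1.09 without PTH replicate 3 to -0.25 without PTH replicate 4. All 15 genes of class I antigen presentation had values below 0 (median -0.29), and the median was -0.17 without hypoxia replicate 5 and -0.50 with it as the only hypoxia library. Among them Nlrc5, the class I transactivator gene, stood at 46.2, 45.5 and 58.7 CPM in hypoxia and 41.8, 33.2 and 21.4 CPM with PTH (-0.64, SE 0.22). Nlrc5 was the only class I gene without overlap, again a share near that of all genes. Its value was -0.42 at its nearest to 0 over the alternatives. At an unadjusted p under 0.05, 7 of the 15 class I genes were lower, where 5.07% of all genes were. That number was 11 with the clock score in the model, 0 with the muscle and fat score and 0 without hypoxia replicate 5. Alveolar macrophage genes had 14 of 16 above 0 (median 0.21), and the PTH libraries all stood above the hypoxia libraries for 6, where 6.6% of all genes did. Chil3, a chitinase-like gene of these cells, stood at 455, 480 and 483 CPM in hypoxia and 539.7, 575 and 612 CPM with PTH (0.28, SE 0.10). Adgre1, which encodes the macrophage marker F4/80, stood at 14.9, 12.1 and 13.3 CPM in hypoxia and 19.3, 19.1 and 18.1 CPM with PTH (0.49, SE 0.11). Interstitial macrophage and monocyte genes had a median of 0.20 (0.08 with hypoxia replicate 5 as the only hypoxia library), and T cell, B cell and plasma cell genes had -0.03, 0.07 and -0.06. In the inflammation list of 25 genes (median 0.24) the acute phase gene Saa3 stood at 1.04, 1.27 and 1.20 CPM in hypoxia and 2.20, 4.804 and 2.84 CPM with PTH (1.48, SE 0.32).

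Lists tied to hypoxia and to pulmonary hypertension lay near 0. The 22 oxygen-regulated genes had a median of 0.01 with 12 above 0, and 15 glycolysis genes had -0.01. Genes of heritable pulmonary hypertension and its vascular pathways had a median of -0.01 over 25 tested members. Of these Smad1 alone did not overlap (0.20, SE 0.07), where the PTH libraries all stood above for 6.6% of all genes. That share was near the background. Bmpr2, the bone morphogenetic protein receptor gene most often mutated in heritable disease, had -0.04. Edn1, which encodes the vasoconstrictor endothelin 1, stood at 78.0, 61.0 and 144 CPM in hypoxia and 87.0, 151 and 238 CPM with PTH (0.75, SE 0.48), and these groups overlapped. Endothelial lists had medians from -0.03 for venous to 0.13 for lymphatic genes. Bone and mineral genes had a median of -0.01 over the 10 of 19 that could be tested, and insulin-like growth factor genes of 0.06. Respiratory chain subunits of the nuclear genome were below 0 for 21 of 22 with a median of -0.11, but with the muscle and fat score in the model 10 of 22 were above 0. Cytosolic ribosomal proteins were below 0 for 21 of 22 with a median of -0.06. Chaperones of the unfolded protein response had 13 of 15 above 0 (median 0.21), and cytosolic heat shock genes 11 of 12 (0.27). These medians were 0.07 and 0.14 without PTH replicate 5, and 0.08 and 0.15 with hypoxia replicate 5 as the only hypoxia library. With both scores 4 of the 15 chaperone genes were above 0 and their median was -0.03.

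**Figure D5:**
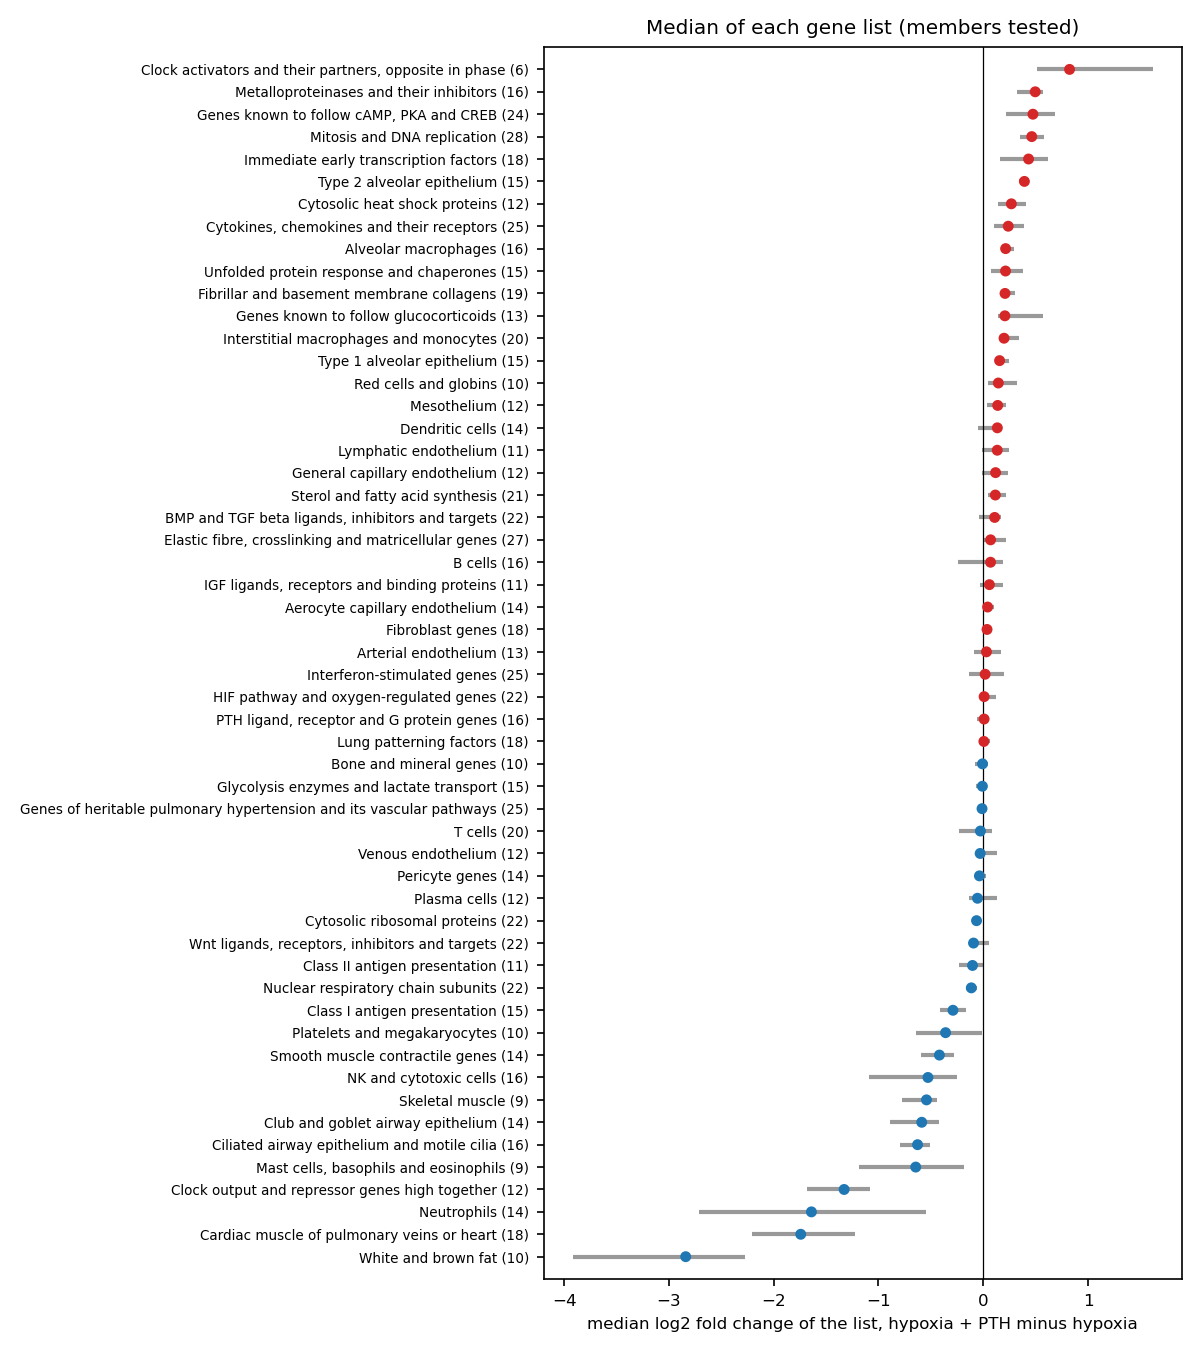
Median log2 fold change of hypoxia with PTH minus hypoxia for each of 54 gene lists (points, with the number of genes tested), with grey bars from the lowest to the highest median when each of the 6 libraries compared is left out in turn. Clock activator, metalloproteinase, cAMP, cell cycle, immediate early and type 2 alveolar lists lie highest, and fat, cardiac muscle, neutrophil and clock output lists lowest, with the narrowest bar among the former for type 2 genes.

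Clock, heart and fat genes, beside neutrophil genes, had the list medians furthest from 0, and they differed widely within groups. Dbp, an output gene of the circadian clock, stood at 316, 197 and 13.9 CPM in hypoxia replicates 1, 2 and 5 and at 10.4, 16.5 and 6.13 CPM with PTH (log2 fold change -3.99, SE 1.48), and hypoxia replicate 5 lay inside the range of the PTH libraries. All 12 genes of the clock output and repressor list had values below 0 (median -1.33). Hlf alone did not overlap, a share near the 7.29% of all genes for which the PTH libraries all stood below. Arntl, which encodes the clock activator BMAL1, stood at 2.30, 1.77 and 50.1 CPM in hypoxia and 49.5, 41.3 and 44.4 CPM with PTH (1.31, SE 1.47). Ciart, a repressor of the clock activators, stood at 85.2, 66.4 and 46.7 CPM in hypoxia and 32.9, 47.5 and 47.6 CPM with PTH (-0.63, SE 0.22). The value of Ciart was -0.30 with the clock score as a covariate and -0.13 with hypoxia replicate 5 as the only hypoxia library. The window around its start (GRCm38.p6, chr3:95882179-95882478, minus strand, from RefSeq) is shown because it holds 3 copies of the E-box CACGTG bound by clock activators, in capitals.
Ciart: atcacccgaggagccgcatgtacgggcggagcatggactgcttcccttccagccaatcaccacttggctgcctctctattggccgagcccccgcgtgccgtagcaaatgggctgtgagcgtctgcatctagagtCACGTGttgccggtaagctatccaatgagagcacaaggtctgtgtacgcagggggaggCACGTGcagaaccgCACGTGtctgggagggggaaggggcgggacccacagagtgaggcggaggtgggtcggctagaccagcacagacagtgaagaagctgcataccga
The E-box, also its own reverse complement, stood in 8.09% of genes with a window, and in 4 of the 11 clock output and repressor genes that had one. Since the clock score of 2 of the 3 hypoxia libraries differs from that of all PTH libraries, PTH and clock phase cannot be told apart for these genes beyond the comparison with hypoxia replicate 5.

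Cardiac muscle genes, present in lung through the muscle sleeves of pulmonary veins or adjoining heart, had values below 0 for all 18 (median -1.74), and adipocyte genes for all 10 tested (median -2.84). Myh6, a cardiac myosin gene, stood at 196, 412 and 758 CPM in hypoxia and 218, 204 and 6.86 CPM in PTH replicates 3, 4 and 5. Adipoq, the adiponectin gene of fat cells, stood at 0.346, 17.4 and 12.0 CPM in hypoxia and 0.331, 1.43 and 0.0946 CPM with PTH. Hypoxia replicate 1 had levels like those of PTH replicate 3 for both genes. Among genes with a mean of at least 5 CPM in the higher group and no overlap, the smallest fold changes at an unadjusted p under 0.05 were those of the clock gene Hlf (-2.09) and of the muscle genes Tcap, Mylk4, Lmod2 and Tnnc1 (from -2.07 to -1.80). All 4 of these muscle genes were lowest in PTH replicate 5. With both scores as covariates Hlf had -0.09 and Tcap -0.42. Tnnc1 overlaps the more abundant Nisch (-0.06), and Tnfsf9, Bcl7a, Aph1c, Nlrc5, Igf2r, Myh6 and Dbp also overlap genes with at least 10% of their level per length, so counts of these genes are uncertain.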

How the data were processed

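Whole lung poly(A) RNA was sequenced in 9 samples, 3 per group. Per the submitters' processing notes, Trimmomatic 0.39, STAR 2.7.9a and mm10 were used. Which read counter, strand setting and annotation the authors used is not given in the sources used here. For 53342 genes, values were deposited by the authors as estimated counts (expected counts), which were rounded here, and the deposited log2 values are TPM on the log2 scale with a floor of 1 TPM and served 1 alternative. Among whole counts from 1 to 20, 88.8% were even, and mates thus seem to have been counted singly, so that totals (40234030 to 58391086) may exceed the number of fragments.

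Counts were tested with edgeR 4.0.16 in R 4.3.3 (TMM, filterByExpr with minimum count 10 and minimum total 15, robust quasi-likelihood test), with all 9 samples in the model and 6 residual degrees of freedom, with Benjamini-Hochberg adjustment over all 19640 genes tested. The SE of a log2 fold change was its size divided by the square root of F. The common biological coefficient of variation was 0.204. Scores used log2 CPM with a prior count of 2. The code was tested on simulated data. Alternatives were DESeq2 1.42.0, limma 3.58.1 (voom, and trend on log2 TPM), other size factors and filters, halved counts, a replicate block, score covariates and each library left out. Gene level is in CPM, overlap of genes in TPM (at least 10% of the named gene's).

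The 54 gene lists, the comparison and the tests were chosen with earlier results of these data known. The named genes were Pth1r, the 15 higher and 15 lower genes with the smallest p (mean of at least 5 CPM in the higher group, groups not overlapping, no predicted genes), the 5 largest and 5 smallest fold changes at an unadjusted p under 0.05, up to 4 members per list at that p without overlap, and Dbp, Arntl, Per2, Nr1d1, Ciart, Myh6 and Adipoq. The rule gave 122 genes, and the text describes a part of them. Etv5, Hc, Gnas, Pthlh, Sik1, Fos, Nr4a1, Dusp1, Mki67, Foxj1, Dnah5, Scgb1a1, Bpifa1, Myh11, Acta2, S100a8, Mmp8, Adamts4, Bmpr2 and Edn1 and the other list members given outside it were chosen after their values were seen. Gucy1a1, Gucy1b1 and Dnai1 were matched by RefSeq synonym, and Ahsp had no match. Promoter windows are RefSeq, 250 bases before to 50 after a start. Some genes that the rule names are not reported here.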

Additional observations from a re-analysis of the deposited data

How the results depend on the processing

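EdgeR's 0 calls at an adjusted p under 0.05 stood at 0 under limma-voom, DESeq2 size factors, no filter, a minimum count of 50, halved counts, the 6 samples alone, either or both scores and a threshold of 0.1. The exceptions were DESeq2 (156 genes), limma-trend on log2 TPM (5, all higher) and leaving out one library, where the count ran from 0 to 1, the 1 being Trp53i11 without hypoxia replicate 5. The count at an unadjusted p under 0.05 (832 higher and 996 lower) ran from 1014 to 2081 with one library left out, the lowest without PTH replicate 5. It was 821 with the muscle and fat score and 723 with both scores as covariates, and limma-trend gave 1093 higher and 578 lower. The groups compared share only replicate number 5. The replicate block, with 2 residual degrees of freedom, gave 1217 genes and 0 calls, and residual correlations of same-numbered samples ran from -0.097 to 0.14, so the numbers were not taken as pairs. The ciliated median was -0.217 with the muscle and fat score and -0.228 with both scores. Signs turned for clock genes and for Hhip. With the clock score Per2 had 0.32 and Nr1d1 0.087. With hypoxia replicate 5 as the only hypoxia library Per2 had 0.62 and Arntl -0.15. With both scores Dbp had 0.27, Per2 0.20 and Nr1d1 0.17. Hhip, on the smooth muscle list, had 0.0034 with both scores and -0.48 in the fit of all libraries. The cause was not tested. With 3 libraries per group the median SE was 0.17 (log2). Differences below it are not resolved, and larger ones need not be. SEs differed between genes, such as 0.06 for Igf2r and 1.48 for Dbp, and Tmem252, at 2.33, was not called by edgeR.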

Other observations

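Growth factor and Wnt genes outside the groups above differed one by one rather than as lists. Bmp2, a bone morphogenetic protein gene, stood at 10.3, 10.6 and 10.04 CPM in hypoxia replicates 1, 2 and 5 and at 14.5, 11.3 and 21.5 CPM in PTH replicates 3, 4 and 5 (log2 fold change 0.61, SE 0.20). Tgfb3, which encodes transforming growth factor beta 3, had 0.34 (SE 0.12), and the 22 genes of the list that holds both had a median of 0.11. Sfrp1, a secreted inhibitor of Wnt ligands, stood at 16.5, 20.2 and 20.1 CPM in hypoxia and 27.0, 27.8 and 29.6 CPM with PTH (0.57, SE 0.19), while the 22 Wnt genes had a median of -0.09. Bmp2, Tgfb3 and Sfrp1 were picked from their lists among members whose groups did not overlap. Tgfb3 had 0.13 with hypoxia replicate 5 as the only hypoxia library, and Bmp2 0.39 with the muscle and fat score in the model. Igf2r, the receptor that clears insulin-like growth factor 2, stood at 98.3, 103 and 99.6 CPM in hypoxia and 115, 112 and 116 CPM with PTH (0.19, SE 0.06). None of these was called by edgeR.

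Lipid synthesis and plasma cell genes gave further differences. Of 21 tested genes of sterol and fatty acid synthesis, 14 were above 0 (median 0.12) and 6 had an unadjusted p under 0.05, all of them higher with PTH, where 4.24% of all genes were. In the plasma cell list, which ran from -1.24 to 2.91, the endoplasmic reticulum gene Derl3 had -1.01 (SE 0.23) and the immunoglobulin A gene Igha -0.53 (SE 0.19), while the list median was -0.06. Derl3 and Igha were chosen among members without overlap at an unadjusted p under 0.05. Of the 12 plasma cell genes, 5 were above 0. The PTH libraries all stood below the hypoxia libraries for 2 (7.29% of all genes) and all above them for 2 others (6.6% of all genes).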
